A study of Saccharomyces cerevisiae with 6 samples.

Results

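The genes described here encode 7 regulators of the yeast stress response: *HSF1*, *MSN2*, *MSN4*, *XBP1*, *RPD3*, *SIN3* and *GAL11*, out of 6002 nuclear protein-coding genes. They were examined in peak lists of Nic96, a structural protein of the nuclear pore complex (NPC), obtained by chromatin immunoprecipitation and sequencing (ChIP-seq) with a monoclonal antibody to the Myc tag. A gene was taken to hold a peak when a peak overlapped its coding sequence or had its summit within 1000 bp of it. The genes were picked because peaks of these same lists were known to lie at *HSF1*, *XBP1*, *RPD3*, *SIN3* and *GAL11*, so their peaks are given as a description and were not tested. The 2 lists come from cells shifted to 37 °C for 15 min. In *tho* cells, *NIC96* carries a 13myc tag marked with KanMX and *MFT1*, which encodes a subunit of the THO complex, is replaced by NatMX. The untagged strain set against them has *mft1*::KanMX, a different marker at that locus. In *wt* cells *NIC96* carries the same tag, no *mft1* allele is listed, and the untagged strain lacks both modifications. All these strains are BY4742 strains (S288C-derived, mating type alpha) with the alleles *his3delta1*, *leu2delta0*, *lys2delta0* and *ura3delta0*, and all carry the plasmid pRS313. The deletion of *MFT1* cannot be checked in a peak list.

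Each list stands for 1 tagged library, so no difference between *tho* and *wt* has a replicate check. The untagged libraries and the tagged library kept at 25 °C are not analysed here on their own. Peaks with a q-value under 0.05, the threshold stated in the methods, were kept, which left 608 *tho* peaks, 571 of them nuclear, and 993 *wt* peaks, all nuclear. Median width was 449 bp in nuclear *tho* peaks and 385 bp in *wt* peaks, and median fold enrichment over the untagged library 1.89 and 1.76. Without read counts the sequencing depth is unknown, and the absence of a peak does not say that Nic96 was absent.

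Heat shock in budding yeast is answered by 2 transcriptional programmes. Hsf1, an essential activator, binds heat shock elements upstream of chaperone genes, while Msn2 and Msn4, related zinc finger activators, enter the nucleus when protein kinase A activity falls and bind the stress response element. Xbp1 is a stress-induced repressor that recognises a CTCGA motif. Rpd3 is the catalytic histone deacetylase of corepressor complexes that Sin3 holds together, and Gal11, also called Med15, is a subunit of the Mediator tail through which activators contact the transcription machinery. Gal11 is therefore a coactivator, whereas Xbp1, Rpd3 and Sin3 are best known in repression.

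Nic96 peaks were found at 3 of the 7 genes in *tho* cells, *HSF1*, *XBP1* and *RPD3*, and at 2 of the 7 in *wt* cells, *SIN3* and *GAL11*. No member held a peak in both lists, and *MSN2* and *MSN4* held none in either. Over all 6002 genes, 14.3% held a *tho* peak, 19.6% held a *wt* peak and 5.98% held both, but the members were chosen from these peaks and nothing is read from their counts. Counting overlap with the coding sequence alone gave the same members, against 7.46% of all genes for *tho* and 13.2% for *wt*, and so did counting all deposited peaks, against 15.5% and 24.2%. In all, 4 *tho* and 5 *wt* peaks were assigned to members. Of the *tho* peaks 3 ran across a border of the member and 1 lay in the spacer upstream of *XBP1*, with 2 of 4 summits inside the member, while all 5 *wt* summits lay in the interior of *SIN3* or *GAL11*. In the whole lists, 54.3% of the 571 nuclear *tho* summits and 90.3% of the 993 *wt* summits lay in a protein-coding gene. None of the 7 genes is interrupted by an intron, each being annotated with 1 coding part.

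**Figure D1:**
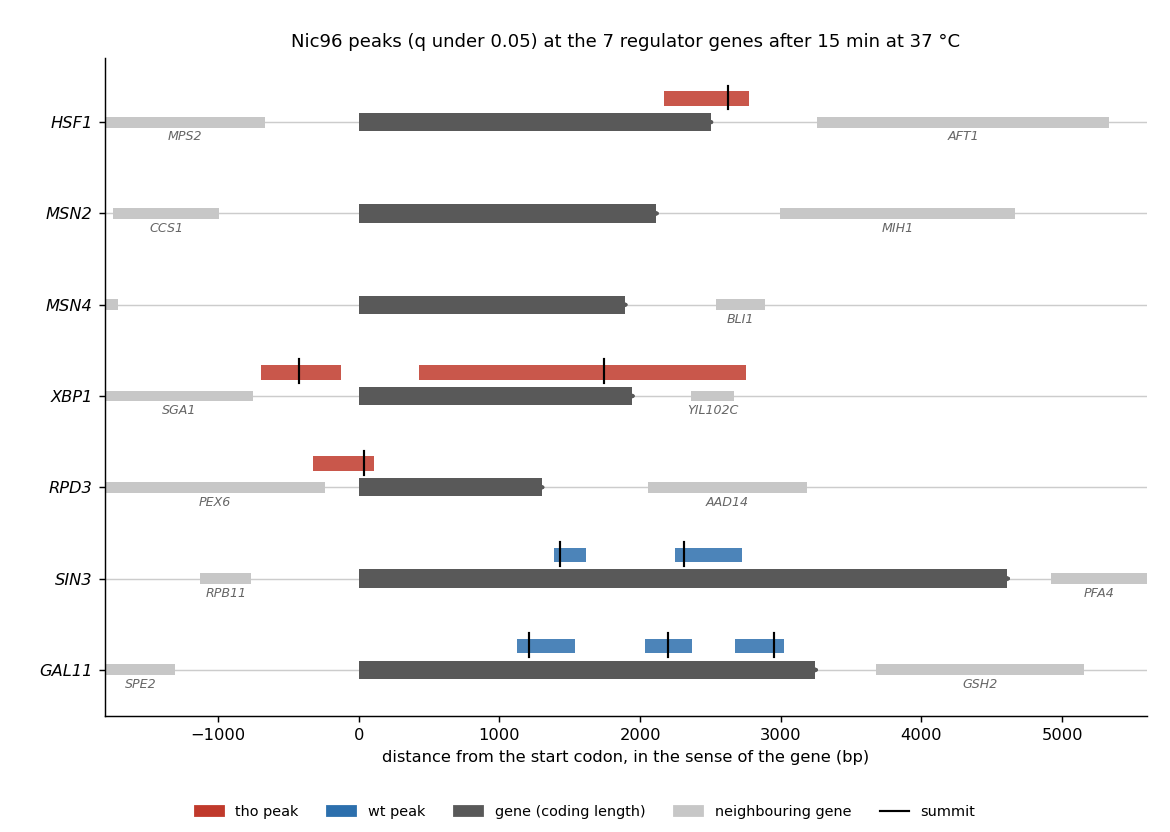
Peaks with q under 0.05 at the 7 genes, drawn to scale against the distance from the start codon in bp, each gene running left to right; red bars are *tho* peaks, blue bars *wt* peaks, black ticks summits and grey bars neighbouring genes. The *tho* peaks reach past a border of *HSF1*, *XBP1* and *RPD3* or lie upstream of *XBP1*, the 5 *wt* peaks lie within *SIN3* and *GAL11*, and *MSN2* and *MSN4* have none.

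*XBP1* (YIL101C) carried the most prominent member peaks, both in *tho*. The gene lies on chromosome IX from 175307 to 177250 on the reverse strand, with a coding length of 1944 bp. The larger peak was 2320 bp wide, from 174500 to 176819, and covered 77.8% of the coding sequence, from 431 bp after the first base of the start codon to past the stop codon. Its summit was 198 bp before the end of the gene. Fold enrichment there was 4.96 and the −log10 q-value 138, placing the peak 15 of the 571 nuclear *tho* peaks by fold enrichment, 11 by q-value and 26 by width. The peak therefore stands among the strongest of its list, in contrast to those at the other members. It is not confined to *XBP1*: it also covered the whole of the short gene YIL102C, a threonine tRNA gene from 175031 to 175103, and the replication origin ARS912 from 175038 to 175358. The summit lay 402 bp from the tRNA gene and 147 bp from ARS912, and the share of the signal owed to each of these features cannot be told apart in a peak list. Of its 75-mers, 0.534% occur again in the genome.

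A second *tho* peak lay upstream of *XBP1*, in the spacer of 753 bp that separates it from *SGA1*, the gene of a sporulation-specific glucoamylase transcribed in the opposite direction. It was 569 bp wide, from 177378 to 177946, and overlapped neither gene. Its fold enrichment was 2.91 and its −log10 q-value 21.7, ranking 69 of 571 by fold enrichment. The summit was 420 bp before the *XBP1* start codon and 334 bp from *SGA1*, so that assignment to the nearest gene gives this peak to *SGA1*. The stress response element AGGGG, bound by Msn2 and Msn4, was found 5 times in this peak when both strands were searched, with centres 6 to 151 bp from the summit and every time on the same strand. These 300 bases (sacCer3 chrIX:177550-177849, written in the sense of *XBP1*, elements in capitals as CCCCT) are shown because they hold all 5 elements:
XBP1 spacer: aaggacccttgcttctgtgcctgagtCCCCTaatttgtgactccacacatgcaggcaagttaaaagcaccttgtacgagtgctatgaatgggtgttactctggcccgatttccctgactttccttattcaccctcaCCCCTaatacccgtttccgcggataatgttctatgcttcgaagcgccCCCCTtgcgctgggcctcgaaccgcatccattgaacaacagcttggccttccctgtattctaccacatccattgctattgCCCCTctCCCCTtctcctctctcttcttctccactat
Within 300 bp centred on the summit, 4 of the elements fall. In windows of that size, 134 of 571 nuclear *tho* summits had at least 1 AGGGG (23.5%) and 1 had at least 4, which is this peak. Among the *wt* summits 18.1% had at least 1 and 0.101% at least 4, and among the promoter windows of all genes, from 250 bp before to 50 bp after the start codon, these were 21.6% and 0.0667%. The promoter window of *XBP1* itself held no AGGGG, because the elements lie farther upstream. A letter match does not show that Msn2 or Msn4 was bound. Under the larger peak AGGGG was found at 2 places, 1 of them 10 bp from the summit.

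The coding sequence of *XBP1* under the larger *tho* peak also contained a match to the heat shock element, which Hsf1 recognises, searched on both strands as GAA, TTC and GAA with 2 free bases between each. Windows of 300 bp held a match at 0.876% of *tho* summits, 0.806% of *wt* summits and 0.783% of promoters. The match in *XBP1* lay 1019 bp from the summit, outside such a window. It was found by searching a peak of 2320 bp, and no share was measured for stretches of that length, so its rarity is not known. It overlapped a CTCGA motif by all of its 5 letters. It is shown with its flanks (sacCer3 chrIX:176498-176550, sense of *XBP1*, element in capitals, read there as TTC, GAA and TTC):
XBP1 coding: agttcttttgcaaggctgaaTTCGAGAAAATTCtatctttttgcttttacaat
In *wt* cells the nearest peak was 751 bp wide and lay inside *SGA1*, with its summit 1387 bp from *XBP1*, a fold enrichment of 1.72 and a q-value of 0.00938. It was the peak just outside the limit of 1000 bp. The *XBP1* spacer peak, at 420 bp, was the only member peak that counted by its summit and not by overlap.

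At *HSF1* (YGL073W, chromosome VII, 368753 to 371254, forward strand, 2502 bp) a *tho* peak of 607 bp, from 370920 to 371526, straddled the 3′ end. It covered the last 335 bp of the coding sequence, or 13.4% of it, and 272 bp beyond. The summit was 122 bp past the stop codon and 636 bp before *AFT1*, the iron regulator gene that follows in the same orientation after a spacer of 757 bp. Fold enrichment was 2.20 and the −log10 q-value 9.44, ranks 180 and 224 of the 571 nuclear *tho* peaks. This peak was thus of ordinary strength in its list. No heat shock element and no AGGGG was found under it, but CTCGA, the motif of Xbp1, was found on either side of the summit, 66 bp before it and 72 bp after it. Both sites are shown with 12 flanking bases (sacCer3 chrVII:371296-371324 and chrVII:371434-371462, forward strand, motif in capitals, the second on the opposite strand):
HSF1 site 1: atatagtatgttCTCGAagctgatcgcgt
HSF1 site 2: agttctcgttatTCGAGctagtgagagcc
At least 2 such motifs were present in 8.58% of *tho* summit windows, 6.34% of *wt* summit windows and 7.77% of promoters, so the pair is not rare. Nor is the motif particular to *HSF1*. The larger *XBP1* peak held 4 CTCGA, the closest 549 bp from its summit, and the *XBP1* spacer peak held 1, 21 bp from its summit. The closest *wt* peak lay in *HNM1*, 5.96 kb from *HSF1*.

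The *tho* peak at *RPD3* lay at the other end of the gene. *RPD3* (YNL330C, chromosome XIV, 18001 to 19302, reverse strand, 1302 bp) lies 18000 bp from the chromosome end, the shortest such distance among the members. The peak was 440 bp wide, from 19190 to 19629, and covered the first 113 bp of the coding sequence (8.68%), the spacer of 238 bp upstream, and 89 bp at the 3′ end of *PEX6*, a peroxisomal biogenesis gene in the same orientation. Its summit was 36 bp after the first base of the *RPD3* start codon. Its fold enrichment of 1.73 and −log10 q-value of 3.77 ranked 376 and 398 of 571, making it the weakest of the 4 *tho* member peaks. The coding bases under the peak (sacCer3 chrXIV:19190-19302, sense of *RPD3*, start codon in capitals) are shown because the summit falls 36 bases into them:
RPD3 start: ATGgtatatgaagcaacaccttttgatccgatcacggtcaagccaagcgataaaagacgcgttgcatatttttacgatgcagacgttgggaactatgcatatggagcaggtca
A single CTCGA motif lay 50 bp from the summit on the upstream side, and no heat shock element or AGGGG was found. At least 1 CTCGA was present in 30.8% of *tho* summit windows. In *wt*, a deposited peak in *PEX6* had its summit 2482 bp from *RPD3*, but its q-value of 0.0602 is just above the threshold. The closest *wt* peak that passed was 6.82 kb away in *EGT2*.

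**Figure D2:**
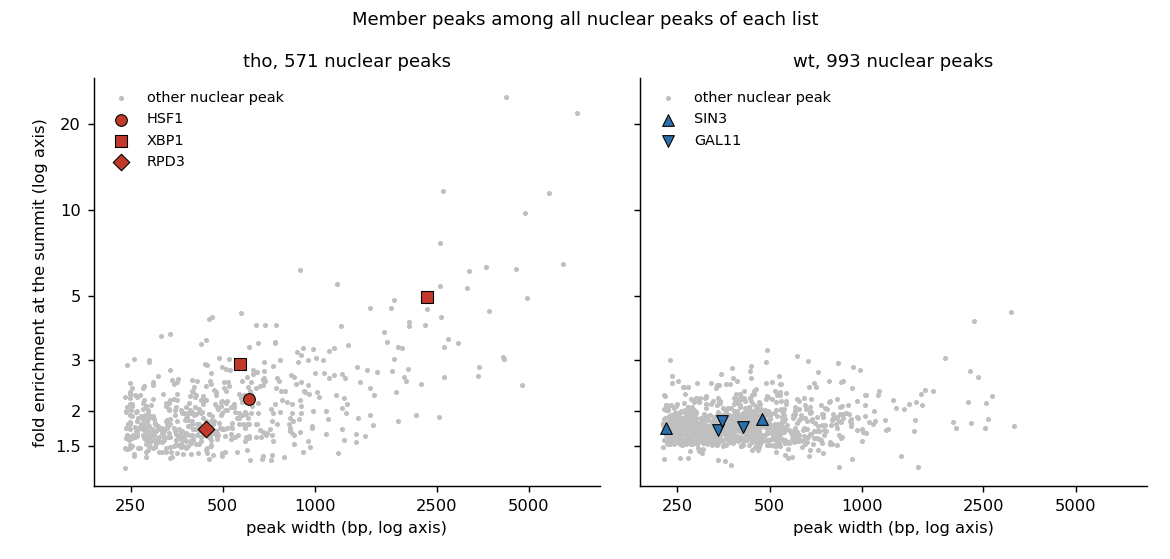
Fold enrichment at the summit against peak width in bp, both on log axes, for the 571 nuclear *tho* peaks and the 993 *wt* peaks; coloured symbols mark member peaks and grey points the others. The larger *XBP1* peak, at 2320 bp and 4.96, stands apart from the other 8 member peaks, which lie between 230 and 607 bp and between 1.71 and 2.91.

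*SIN3* (YOL004W, chromosome XV, 316938 to 321548, forward strand) is the longest member, with a coding length of 4611 bp. It held 2 *wt* peaks, one of 230 bp from 318325 to 318554 and one of 474 bp from 319188 to 319661, which together covered 15.3% of the gene. Fold enrichments were 1.74 and 1.87, and −log10 q-values 3.03 and 2.96. Their summits were 1433 and 2315 bp after the first base of the start codon, so both fall before or close to the middle of the gene and far from its borders. The first peak was among the narrowest of the list, ranking 974 of 993 by width. No *tho* peak that passed the threshold was nearer than 28.7 kb, and a deposited *tho* peak 12.3 kb away had a q-value of 0.0530.

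*GAL11* (YOL051W, chromosome XV, 234940 to 238185, forward strand, 3246 bp) held 3 *wt* peaks, the largest number at any member. They were 409, 339 and 350 bp wide, from 236069 to 236477, from 236972 to 237310 and from 237613 to 237962, and covered 33.8% of the gene. Gaps of 494 and 302 bp separated them. Fold enrichments were 1.76, 1.71 and 1.83, close to the *wt* median of 1.76. The −log10 q-values were 1.999, 1.82 and 2.63, and the second peak, of q-value 0.0151, was the member peak nearest to the threshold. With q under 0.01 only the third remained, covering 10.8% of the gene. The summits lay 1212, 2198 and 2950 bp after the first base of the start codon, the last of them 295 bp before the end of the gene. In the *wt* list, 1.92% of all genes were overlapped by 2 or more peaks and 0.333%, or 20 genes, by 3 or more. No member was overlapped by more than 1 *tho* peak, and of all genes 0.683% were overlapped by 2 or more and 0.0833% by 3 or more *tho* peaks. The closest *tho* peak to *GAL11* was 50.1 kb away, the greatest such distance among the members.

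Long genes held *wt* peaks more often, which bears on both. Of the 287 genes of 3000 to 3999 bp, the class of *GAL11*, 20.9% held a *tho* and 36.9% a *wt* peak, and of the 240 genes of 4000 bp or more, the class of *SIN3*, 25.4% and 44.2% did. For the 799 genes of 2000 to 2999 bp, with *HSF1* and *MSN2*, the shares were 16.5% and 28.9%. They were 13.2% and 18.2% for the 2266 genes of 1000 to 1999 bp, which include *MSN4*, *XBP1* and *RPD3*. The part of gene length in the peaks at *SIN3* and *GAL11* was not tested.

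The first *wt* peak of *SIN3* and the first of *GAL11* coincided with stretches rich in the codons CAA and CAG, which encode glutamine. The second of *GAL11* only began within such a stretch. Under the first *SIN3* peak, 23 of 76 codons were CAA or CAG (30.3%), against 6.91% of the codons of *SIN3* outside its peaks. Under the first *GAL11* peak 52 of 135 were (38.5%) and under the second 19 of 112 (17.0%), against 13.9% outside the peaks and 16.0% over the whole gene. The second *SIN3* peak and the third *GAL11* peak had 1.90% and 1.72%, below the 3.94% of all genes with 1 coding part. The richest 60 codons under each of the 3 peaks (sacCer3 chrXV:318375-318554, chrXV:236182-236361 and chrXV:236974-237153, forward strand, in frame, CAA and CAG in capitals) show how the 3 runs differ from each other:
SIN3 peak 1: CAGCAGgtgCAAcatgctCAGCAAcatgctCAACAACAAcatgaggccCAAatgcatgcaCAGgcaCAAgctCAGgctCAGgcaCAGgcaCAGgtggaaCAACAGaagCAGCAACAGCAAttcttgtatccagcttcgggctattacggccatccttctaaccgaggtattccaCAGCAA
GAL11 peak 1: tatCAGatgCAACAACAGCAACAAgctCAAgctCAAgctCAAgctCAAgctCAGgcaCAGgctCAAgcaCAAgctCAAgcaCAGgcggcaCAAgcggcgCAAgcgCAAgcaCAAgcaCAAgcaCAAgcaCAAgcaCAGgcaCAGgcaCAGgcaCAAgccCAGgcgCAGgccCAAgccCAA
GAL11 peak 2: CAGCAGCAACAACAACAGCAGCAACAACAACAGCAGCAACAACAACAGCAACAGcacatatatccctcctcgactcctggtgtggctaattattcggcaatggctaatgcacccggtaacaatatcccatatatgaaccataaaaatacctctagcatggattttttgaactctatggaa
In the stretch shown from the first *GAL11* peak 31 of 60 codons are CAA or CAG, and in that from the second they form an unbroken run that ends before the summit. No 75-mer under any *SIN3* or *GAL11* peak occurs elsewhere in the genome (0% of them).

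Most *wt* peaks were not rich in such codons, though over all genes no share was measured for peak-sized stretches without a peak. A peak that covers several genes was counted once with each, which gave 419 pairs of a peak and a gene from 342 *tho* peaks and 871 pairs from 861 *wt* peaks, each with at least 50 codons under the peak. Of the *tho* pairs 0.239%, or 1 pair, reached 30% of CAA and CAG. Of the *wt* pairs 0.459%, or 4 pairs, did, and the other two were in *SLA2* and *YCK2*. At least 10% was reached by 2.15% of the *tho* pairs and 3.9% of the *wt* pairs. The median was 3.33% over the *tho* pairs and 3.48% over the *wt* pairs. Nor does *GAL11* carry a peak on every such stretch: in windows of 51 codons the share reached 50.98% at 438 bp after the start codon, where no peak was found, against 52.9% under the first peak and 62.7% at 2010 bp, just before the second. By its share of these codons *GAL11* ranked 7 and *SIN3* 92 of the 3454 genes of at least 1000 bp that have 1 coding part, whereas *XBP1* ranked 297, *MSN2* 1078, *MSN4* 1392, *HSF1* 1674 and *RPD3* 3433. Among the 100 genes with the highest share, 15.0% held a *tho* peak and 26.0% a *wt* peak, close to the 15.3% and 23.8% of all 3454.

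**Figure D3:**
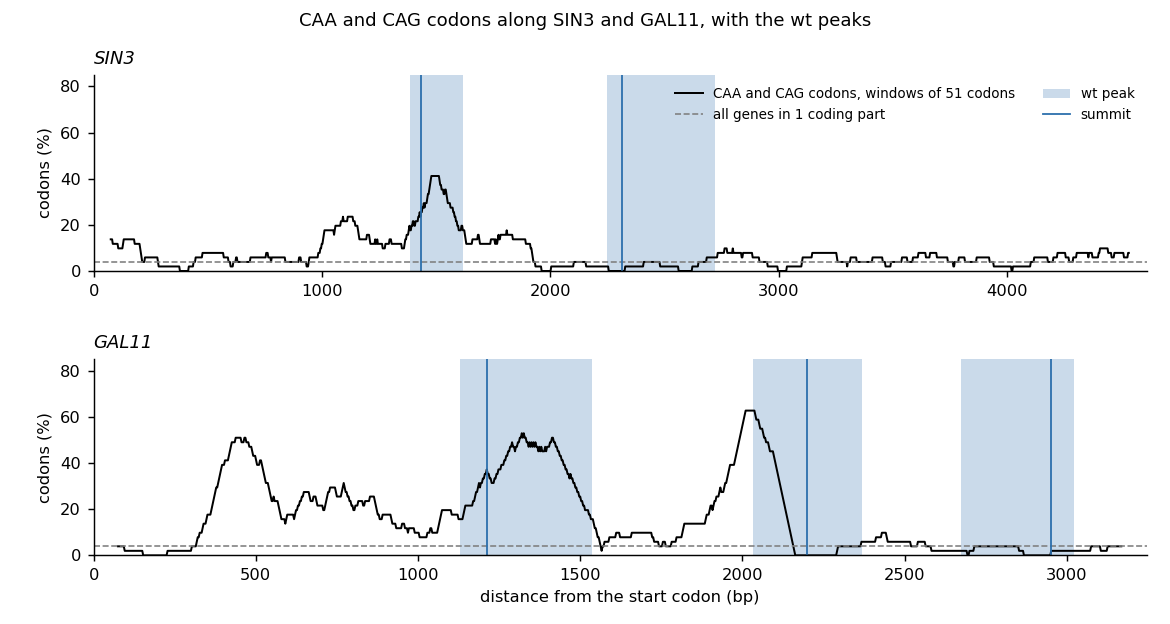
Share of CAA and CAG codons in windows of 51 codons (%, y axis) along *SIN3* and *GAL11* against the distance from the start codon in bp; shaded bands are *wt* peaks, blue lines their summits, and the dashed line the 3.94% of all genes with 1 coding part. The first *SIN3* band and the first *GAL11* band lie on stretches that reach 41.2% and 52.9%, the *GAL11* stretch near 438 bp has no band, and the last band of each gene lies on none.

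*MSN2* (YMR037C, chromosome XIII, 344403 to 346517, reverse strand, 2115 bp) and *MSN4* (YKL062W, chromosome XI, 323228 to 325120, forward strand, 1893 bp), whose products act on the same element, had no peak at any threshold used. For *MSN2* the nearest *tho* peak was 38.0 kb away, beside *SOK2*, and the nearest *wt* peak 9.84 kb away in *IOC4*. For *MSN4* the nearest *tho* peak was 30.2 kb away, beside *PRI2*, and the nearest *wt* peak 26.3 kb away in *DCW1*. A deposited *wt* peak in *MPE1*, 3.36 kb from *MSN4*, had a q-value of 0.0718 and was set aside. Neither promoter window held a heat shock element, AGGGG or CTCGA, and the same was true of *HSF1*, *XBP1* and *GAL11*. The window of *SIN3* held 1 AGGGG and 1 CTCGA, and that of *RPD3* 1 CTCGA. At least 1 CTCGA was present in 25.9% of the promoter windows of all genes.

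Base composition followed no single pattern over the member peaks. The first *GAL11* peak had 51.8% GC, the first *SIN3* peak 49.1% and the *HSF1* peak 48.3%, above the medians of 42.3% in nuclear *tho* peaks and 43.4% in *wt* peaks. The *RPD3* peak, at 38.4%, and the second *SIN3* peak, at 38.8%, were below them. The Ume6 element URS1, GGCGGC, is the site through which Ume6 brings the Rpd3 and Sin3 complex to its targets. It was matched once under the first *GAL11* peak, at 2 places under the larger *XBP1* peak, and under no peak of *RPD3* or *SIN3*. The *GAL11* match is part of the codons CAG, GCG and GCA in the stretch rich in CAA and CAG shown above. A letter match does not show that Ume6 was bound. Windows of 300 bp held URS1 at 7.71% of *tho* summits, 10.7% of *wt* summits and 5.13% of promoters, but both *XBP1* matches lay outside such a window, 930.5 and 1117.5 bp from the summit. The second *SIN3* peak held 1 AGGGG and 2 CTCGA, and the second *GAL11* peak 1 CTCGA.

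**Figure D4:**
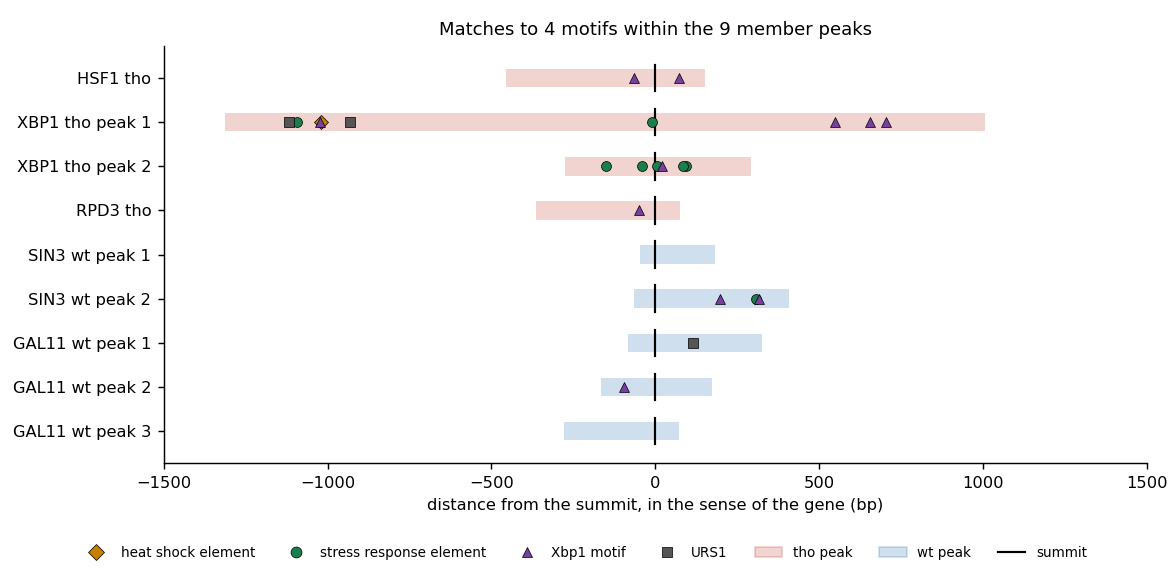
Matches to the heat shock element, the stress response element, the Xbp1 motif and URS1 (symbols) within the 9 member peaks (bars, red for *tho* and blue for *wt*), by distance from the summit in bp in the sense of the gene. The spacer peak upstream of *XBP1* holds 5 stress response elements around its summit, and the *HSF1* peak holds an Xbp1 motif on each side of its summit. The larger *XBP1* peak holds 4 Xbp1 motifs and the spacer peak 1.

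The 7 genes were set beside other genes of the same pathways, in 5 lists written with the members' peaks known and holding 96 genes, all found in the annotation. Of the 89 genes that are not members, 16 held a *tho* peak (18.0%, against 14.3% of all genes), 12 a *wt* peak (13.5%, against 19.6%), 7 of them in both, and 68 held none. Shares this near the background, in lists this short, single out no pathway. Stress-response transcription factors beyond the members had 2 of 12 genes with a *tho* peak and 2 of 12 with a *wt* peak. *RPH1* and *GIS1*, paralogous zinc finger genes of the nutrient stress response, held 2 *wt* peaks and 1 *wt* peak within their coding sequences, at fold enrichments of 1.54, 1.75 and 1.70. *RPH1* also had a *tho* peak 455 bp upstream, which is nearer to *CCA1*. *USV1*, a stress-induced zinc finger gene, counted through a *tho* peak in the neighbouring YPL229W.

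The subunits of the Rpd3 complexes other than Rpd3 and Sin3 showed 2 of 12 genes with a *tho* peak, *ASH1* and *PHO23*, with summits 804 and 661 bp upstream and nearest to *MTR2* and *RPS7B*. In *wt* there were also 2 of 12, *ASH1* and *UME6*, each with a peak within its coding sequence, at fold enrichments of 1.85 and 1.61, and *UME6* also counted through a peak in *EBS1*. Of 24 Mediator genes other than *GAL11*, 1 held a *tho* peak and 1 a *wt* peak (4.17% each, against 14.3% and 19.6% of all genes). Both were at *SSN2*, which encodes Med13 of the kinase module, with a *tho* peak of 427 bp at its 3′ end (fold enrichment 1.98, summit 158 bp downstream) and, in its interior, a 245 bp *wt* peak (1.91).

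Among the other corepressor and deacetylase genes, 6 of 21 held a *tho* peak (28.6%, against 14.3% of all genes). A *wt* peak was held by 3 of 21 (14.3%, against 19.6%). The *tho* peaks of *CYC8*, *NRG2* and *SUM1* counted by their summits only and did not overlap the gene. *MIG1*, the glucose repressor gene, had 3 *tho* peaks, with fold enrichments of 2.70, 1.91 and 1.98, of which 1 overlapped its 3′ end and the others lay in *VIR1* and YGL034C. *RGT1*, another glucose-responsive repressor gene, had a 928 bp *tho* peak across the 3′ end, its summit nearer to *AIM26*, with a fold enrichment of 2.32, beside 2.20 at the 3′ end of *HSF1*. *CYC8*, the partner of Tup1, and *NRG2* had *tho* peaks upstream of their start codons, with summits at 439 and 426 bp, like the spacer peak at 420 bp before *XBP1*. *SUM1*, a repressor of meiotic genes, had a *tho* peak past its end and a *wt* peak inside, *HOS4* a *tho* peak inside, *HOS3* 2 *wt* peaks inside, and *SIR2* a *wt* peak 976 bp away in *NAT1*.

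Genes that control Msn2 and Msn4 held a *tho* peak in 5 of 20 cases (25.0%, against 14.3% of all genes). A *wt* peak was held by 4 of 20, against 19.6% of all genes. The list includes *IRA1* and *IRA2*, both longer than 4000 bp. In the class of 4000 bp or more, 25.4% of genes held a *tho* peak and 44.2% a *wt* peak. *IRA2*, a Ras inhibitor gene that keeps protein kinase A in check, had 6 peaks in each list, of which 4 *tho* and 6 *wt* peaks overlapped it. Its widest *tho* peaks, of 1772 and 3191 bp, had fold enrichments of 4.57 and 6.14, and the *wt* peaks with summits in them had 2.02, 2.06, 1.90 and 1.91. The summit of the 1772 bp *tho* peak lay 2963 bp after the start codon, and a *wt* summit lay at 2963 bp too. No member had peaks in both lists whose positions could be set side by side in this way. *YAK1*, a kinase gene of the same pathway, was covered over 41.96% by a *tho* peak of 2575 bp that also spans *ROQ1*, *TIM17* and *IRC9* (fold enrichment 4.23), had another of 393 bp at its 5′ end (1.42), and held 2 *wt* peaks of 1.81 and 1.66. *IRA1* held 2 *tho* peaks and 1 *wt* peak, *TPK3*, which encodes a catalytic subunit of protein kinase A, 1 *wt* peak, and *RIM15* counted only through a *tho* peak in *MIL1*.

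**Figure D5:**
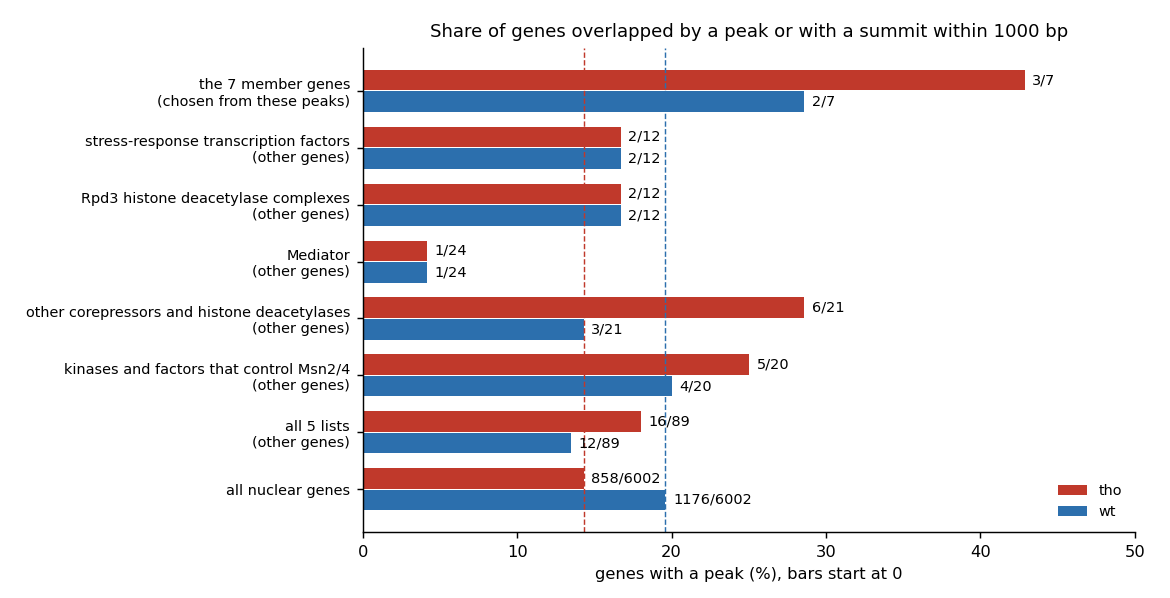
Share of genes (%) that hold a peak in *tho* (red) and in *wt* (blue) for the 7 members, for the other genes of each pathway list and for all 6002 nuclear genes, with counts beside the bars and dashed lines at the shares of all genes, 14.3% and 19.6%. The members were chosen from these peaks, and the 89 other genes sit at 18.0% and 13.5%.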

How the data were processed

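The series has 6 samples, of which the tagged *tho* and *wt* libraries at 37 °C, grouped by their titles, have peak lists. The methods and the submitters' processing notes name Bowtie2 for mapping to sacCer3 (perfect matches only), SAMtools for removing duplicates, deepTools 3.3.2, and MACS2, with which the authors called narrow peaks over the untagged strain. The deposited fold enrichment is a ratio of tagged to untagged signal at the summit. Further deposited columns give the p-value and the q-value as −log10, and a score, not used here, repeats the p-value in whole numbers. Such values depend on library depth and were ranked within 1 list only.

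Because deposited q-values reached 0.192 in *tho* and 0.178 in *wt*, the stated threshold of 0.05 was applied. Positions count from 1. Genes and sequences come from RefSeq R64 and gene positions are coding sequences. The 4 motifs were searched on both strands of peaks and of 300 bp windows, and codons were read in frame. Repeats were counted as 75-mers present again on either strand. Members and gene lists were chosen with earlier results of these data known, and no test was made, since each condition has 1 library. Genes named are the members, listed pathway genes with a peak, and genes beside these peaks, except 1 item that is not reported here. *SLA2* and *YCK2* were named after their values were seen. The measures set out in the design for each member peak did not include the CAA and CAG codons. Scripts (Python 3.11.15, matplotlib 3.10.9) were tested on simulated peaks. Alternatives covered the q-value threshold, the summit window, nearest-gene assignment and merging of peaks.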

Additional observations from a re-analysis of the deposited data

How the results depend on the processing

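The 3 *tho* and 2 *wt* members were recovered with all deposited peaks, with q under 0.01, with overlap only, with a 500 bp window and with nearest-gene assignment. A 2000 bp window added *XBP1* in *wt* through the peak in *SGA1*, giving 1 member with peaks in both lists in place of 0. With q under 0.01 the *wt* peaks at members dropped to 3 and the covered part of *GAL11* to 10.8%, against 5 peaks and 33.8%. Of the 89 other pathway genes, those with a *tho* peak numbered 8 by overlap alone and 10 by nearest gene, against 16, and those with a *wt* peak 21 in a 2000 bp window, against 12. The remaining 66 of 72 values stayed equal or within 1.5 times. They include the covered parts of members without a peak, which a stricter threshold cannot change. Peaks less than 200 bp apart were merged without changing the number at members. No paired analysis was possible because each condition has 1 library, which also leaves no replicate to omit. Without read counts, the occupancy of a member in the strain where it has no peak could not be measured.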

Other observations

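In 9 of the 871 pairs of a *wt* peak and a gene (1.03%), at least 20% of the codons under the peak were CAA or CAG. They lay in *GAL11* (38.5%), *SIN3* (30.3%), *SSN2* (20.99%), *YCK2* (36.3%), *SLA2* (31.0%), *EAF1* (23.2%), *SUP35* (22.4%), *SEC24* (22.2%) and *DIF1* (22.2%), and fold enrichment over the 9 peaks ranged between 1.503 and 1.91. In *tho*, 2 of 419 pairs reached 20%, in *SCD5* (22.5%) and in YPL229W beside *USV1* (30.3%). These genes were singled out after their values were seen.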
